A study of Arabidopsis thaliana with 12 samples.

Results

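The WRKY genes encode a large plant family of transcription factors, and 45 of its Arabidopsis members are described here, out of 23387 genes in the deposited table. They were taken by locus identifier, and WRKY54 and WRKY70 are not among them. From general knowledge of the family, 25 were placed in a defence-inducible class, whose transcripts are known to rise with pathogens, elicitors or salicylic acid, and 20 in a class of other members. Some of the 25 also respond to heat, salt or phosphate supply, so the division is one of background knowledge. The members and classes were also chosen with earlier results of these data known, so class counts are a description and not independent evidence. Expression was measured by RNA sequencing of whole Arabidopsis thaliana seedlings, 7 days old, grown at 21 °C and then held at 27 °C for 12 h, in short days. There were 4 genotypes with 3 libraries each. The line h3.3kd (h3.3kd-1 in the genotype field) is a knockdown of the histone variant H3.3, the line h2a.z is a mutant of the variant H2A.Z, and h3.3kd;h2a.z has both and is called the combined line below. Col is the wild type. Every library came from plants at 27 °C, so the response to warmth was not measured. The sources used here do not give how h3.3kd-1 and the h2a.z alleles were made. Values are TPM, a share of transcripts that corrects for gene length. Libraries are named by genotype and replicate number, with combined 1 to 3 for the combined line.

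H2A.Z and H3.3 take the place of the standard histones H2A and H3 in some nucleosomes, H2A.Z mostly near gene starts and across the bodies of genes that are switched on by stress. WRKY proteins bind a short DNA element, the W box, which is common in the promoters of defence genes, including those of WRKY genes themselves. In pattern-triggered immunity, receptors such as FLS2 (AT5G46330) activate MAP kinase cascades, the kinases phosphorylate WRKY proteins such as WRKY33 (AT2G38470), and small VQ-motif proteins bind and modulate some of them. Family members are grouped by their DNA-binding domains into groups I, IIa to IIe and III.

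The promoters of the defence-inducible members held W boxes more often than those of the other members, as a description of the sequence and not of binding. The letters TTGACC and TTGACT were searched on both strands in the 250 bases before each annotated gene start (RefSeq, build TAIR10.1), and matches that share a base on the same strand were counted separately. At least 1 match lay before 14 of the 25 defence-inducible members (56.0%) and before 2 of the 20 other members, against 28.5% of 23233 protein-coding genes of the table. The share with 2 or more was 32.0% of the defence-inducible members and 5.0% of the other members, against 6.09% of all genes. Within the defence-inducible class, 7 of the 15 members that rose in h2a.z (46.7%) had a match, against 7 of the 10 that did not rise or were not tested (70.0%). The promoters of 5 members are shown to set these cases side by side. WRKY30 (AT5G24110), WRKY33, WRKY53 (AT4G23810) and WRKY29 (AT4G23550) rose in h2a.z and hold 2 or 3 matches, whereas WRKY46 (AT2G46400), the member with the highest log2 fold change there, holds none in this window. The windows of WRKY30 and WRKY33 are chr5:8154711-8154960 on the minus strand and chr2:16107985-16108234 on the plus strand. Those of WRKY53 and WRKY29 are chr4:12393983-12394232 on the minus strand and chr4:12291382-12291631 on the plus strand. That of WRKY46 is chr2:19044956-19045205 on the minus strand. Each is written 5′ to 3′ on the gene's own strand, ends at the base before the gene start, and has the W box letters in capitals. The reverse strand match reads GGTCAA or AGTCAA.
WRKY30: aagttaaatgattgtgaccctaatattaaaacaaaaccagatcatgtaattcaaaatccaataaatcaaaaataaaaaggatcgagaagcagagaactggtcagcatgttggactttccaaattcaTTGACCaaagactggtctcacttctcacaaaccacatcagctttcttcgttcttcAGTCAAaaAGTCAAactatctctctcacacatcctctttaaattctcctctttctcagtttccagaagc
WRKY33: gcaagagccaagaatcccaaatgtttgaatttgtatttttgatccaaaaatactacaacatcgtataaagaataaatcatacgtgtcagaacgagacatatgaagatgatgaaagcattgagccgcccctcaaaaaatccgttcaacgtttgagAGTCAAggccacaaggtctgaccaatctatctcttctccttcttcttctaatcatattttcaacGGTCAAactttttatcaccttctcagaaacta
WRKY53: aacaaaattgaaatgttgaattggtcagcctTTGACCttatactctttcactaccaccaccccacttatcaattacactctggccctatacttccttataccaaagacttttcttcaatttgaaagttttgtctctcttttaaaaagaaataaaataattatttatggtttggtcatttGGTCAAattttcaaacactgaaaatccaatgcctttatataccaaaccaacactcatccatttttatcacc
WRKY29: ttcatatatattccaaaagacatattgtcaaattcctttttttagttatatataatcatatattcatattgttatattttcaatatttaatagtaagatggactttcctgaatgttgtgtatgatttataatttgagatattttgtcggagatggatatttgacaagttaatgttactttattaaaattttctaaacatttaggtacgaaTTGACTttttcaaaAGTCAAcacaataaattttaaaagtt
WRKY46: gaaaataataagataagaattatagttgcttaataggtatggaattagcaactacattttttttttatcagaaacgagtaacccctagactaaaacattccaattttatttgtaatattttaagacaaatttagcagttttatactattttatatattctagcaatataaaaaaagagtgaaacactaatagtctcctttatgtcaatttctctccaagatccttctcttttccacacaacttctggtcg

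**Figure D1:**
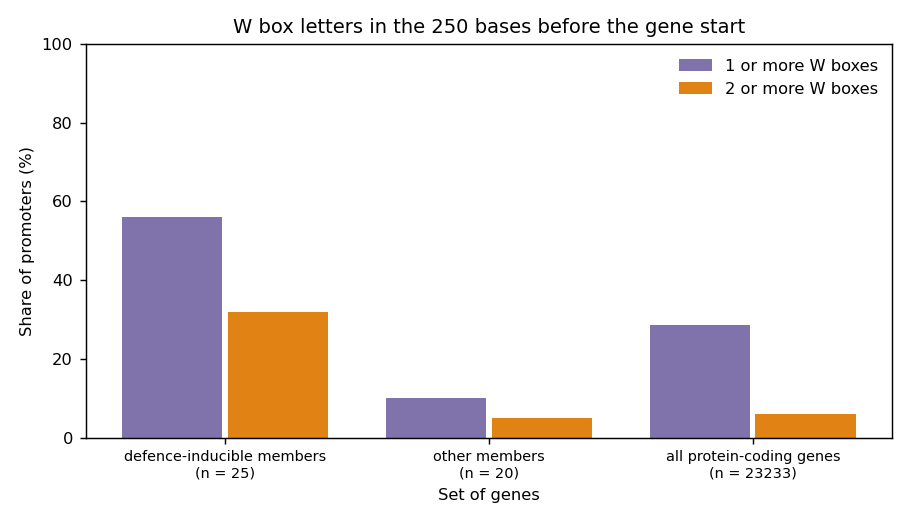
Share of promoters (%) with 1 or more (purple) or 2 or more (orange) W box matches in the 250 bases before the gene start, for the 25 defence-inducible members, the 20 other members and 23233 protein-coding genes. The defence-inducible members stand at 56.0% and 32.0%, above all genes at 28.5% and 6.09%.

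The promoter of WRKY30 holds 3 matches whose first letters lie 124, 69 and 61 bases before the start. That of WRKY33 holds matches 96 and 32 bases before the start, that of WRKY53 at 219 and 71, and that of WRKY29 at 40 and 26. WRKY18 (AT4G31800), WRKY40 (AT1G80840), WRKY48 (AT5G49520), WRKY51 (AT5G64810) and WRKY60 (AT2G25000), which also rose in h2a.z, had none of these letters in the window. Of the other members, WRKY20 (AT4G26640) had 1 match and WRKY32 (AT4G30935) had 2.

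The labels of the lines were checked on the genes they target. Over their 3 libraries, the H3.3 genes HTR4 (AT4G40030), HTR5 (AT4G40040) and HTR8 (AT5G10980) averaged 54.7 ± 6.45 TPM, 63.7 ± 12.3 TPM and 8.55 ± 0.431 TPM in the combined line, against 448 ± 30.9 TPM, 478 ± 61.1 TPM and 239.8 ± 50.7 TPM in Col (SD, n = 3). In h3.3kd they averaged 55.1, 79.4 and 11.1 TPM, and every library of both lines was below every Col library. In h2a.z, HTR5 also fell, with 295, 292 and 319.8 TPM in h2a.z, against 544, 424 and 467 TPM in Col (log2 fold change -0.65 ± 0.17, adjusted p = 0.014). HTR8 fell there too, with 166, 156 and 182 TPM in h2a.z, against 297, 200.4 and 222 TPM in Col (log2 fold change -0.49 ± 0.16, adjusted p = 0.045). HTR4 did not pass the test (log2 fold change -0.34 ± 0.24, adjusted p = 0.41). The H2A.Z genes HTA8 (AT2G38810), HTA9 (AT1G52740) and HTA11 (AT3G54560) were likewise below Col in every library of the combined line and h2a.z, and HTA9 kept the most transcript, with 91.9, 77.1 and 92.7 TPM in the combined line, against 31.3, 34.4 and 30.5 TPM in h2a.z and 325, 211 and 228 TPM in Col. In h3.3kd, HTA8 fell against Col (log2 fold change -0.70 ± 0.22, adjusted p = 0.04). Genes above 0 ran from 19590 (h3.3kd 2) to 22019 (h2a.z 3), and TPM keeps no read depth, so the counting error behind a value is unknown. The library h3.3kd 2 stood apart: its genes lay at a root mean square of 0.405 log2 units from the mean of its genotype, the largest of the 12. Chloroplast genes took 0.587% of its TPM, while the remaining libraries had 0.171% to 0.347%. As deposited, the median log2 fold change of all tested genes against Col was -0.10 (combined line), -0.12 (h3.3kd) and 0.05 (h2a.z). After rescaling by median ratios it was -0.01, -0.03 and 0.01. Changes are read against these shifts. Seedlings hold shoot and root, and 14 root markers summed to 153 to 165 TPM in the combined line, 106 to 218 TPM in h3.3kd and 294 to 327 TPM in h2a.z, against 218 to 257 TPM in Col. The 6 shoot markers summed to 56113 to 57829 TPM in the combined line, 37739 to 69891 TPM in h3.3kd and 37432 to 40589 TPM in h2a.z, against 44395 to 54183 TPM in Col. Root marker TPM per 1000 TPM of shoot markers was 2.65 to 2.86 in the combined line, 1.51 to 5.77 in h3.3kd and 7.54 to 8.58 in h2a.z, against 4.02 to 5.40 in Col. It was higher in every h2a.z library, and lower in every library of the combined line, than in any Col library, and its part in the results was not tested. The sums lean on few genes. In h2a.z against Col, 10 of 13 tested root markers had a log2 fold change above 0 and 3 below. IRT1 (AT4G19690) averaged 64.5 against 28.4 TPM and PHT1;1 (AT5G43350) 74.9 against 40.6 TPM, while CASP1 (AT2G36100) averaged 26.3 against 37.7 TPM. Of the 6 shoot markers 1 was above 0, LHCB2.1 (AT2G05100), and 5 were below. RBCS1A (AT1G67090) and LHCB1.3 (AT1G29930) held most of the shoot sum. Of the shoot markers, 0 rose and 1 fell in h2a.z, 0 and 3 in h3.3kd and 0 and 0 in the combined line, each against Col. In whole seedlings, fewer cells of a type and less RNA per cell cannot be told apart.

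Of the 45 members, 41 could be compared, 22 of the defence-inducible class and 19 of the other class. A gene was tested where it reached 1 TPM in at least 3 of the 12 libraries. WRKY51 and WRKY8 (AT5G46350) passed only through their h2a.z libraries, so they had to be higher there if they were to be tested at all, and they went untested when any h2a.z library was left out. The same holds for CML37 (AT5G42380) of the rapid stress genes and PLT2 (AT1G51190) of the root markers described below. WRKY30 and some list genes reached 1 TPM in fewer than 3 libraries outside h2a.z, so they were tested only with their h2a.z libraries. This favours a high level in h2a.z in every comparison that uses it. The list genes are FRK1 (AT2G19190), SAG13 (AT2G29350), CYP71A13 (AT2G30770), ACS2 (AT1G01480), MYB15 (AT3G23250), CML38 (AT1G76650), PLT1 (AT3G20840) and SMB (AT1G79580). WRKY15 (AT2G23320), known for oxidative and salt stress, was the most abundant member, at 104, 126 and 137 TPM in the combined line, 73.5, 102 and 108 TPM in h3.3kd, 107, 92.4 and 96.01 TPM in h2a.z and 96.2, 96.1 and 109.7 TPM in Col. Its libraries ran from 73.5 to 137 TPM, and it did not pass the test in any of the comparisons below. Over all 25 defence-inducible members, the median deviation from the 12-library mean on the log2(TPM + 1) scale was -0.20, -0.15 and -0.05 in the combined line, and -0.48, -0.31 and -0.21 in h3.3kd. It was 0.82, 0.78 and 0.99 in h2a.z and -0.12, -0.51 and -0.08 in Col. All 3 h2a.z libraries stood above the other 9. Over the 20 other members the same median was 0.26, 0.30 and 0.12 in h2a.z and lay between -0.30 and 0.16 in the rest, so h2a.z did not stand clear of Col there. Summed levels of the defence-inducible class were 246, 278 and 306 TPM in the combined line, 189, 269.7 and 269 TPM in h3.3kd, 422, 372 and 408 TPM in h2a.z and 262, 227 and 279 TPM in Col. Those of the other class were 317, 315 and 301 TPM in the combined line, 278, 338 and 332 TPM in h3.3kd, 340.5, 335 and 351 TPM in h2a.z and 338, 296 and 361 TPM in Col. The summed level of the defence-inducible class was highest in the 3 h2a.z libraries, while in the other class h2a.z and Col overlapped and every library of the combined line was below every h2a.z library.

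**Figure D2:**
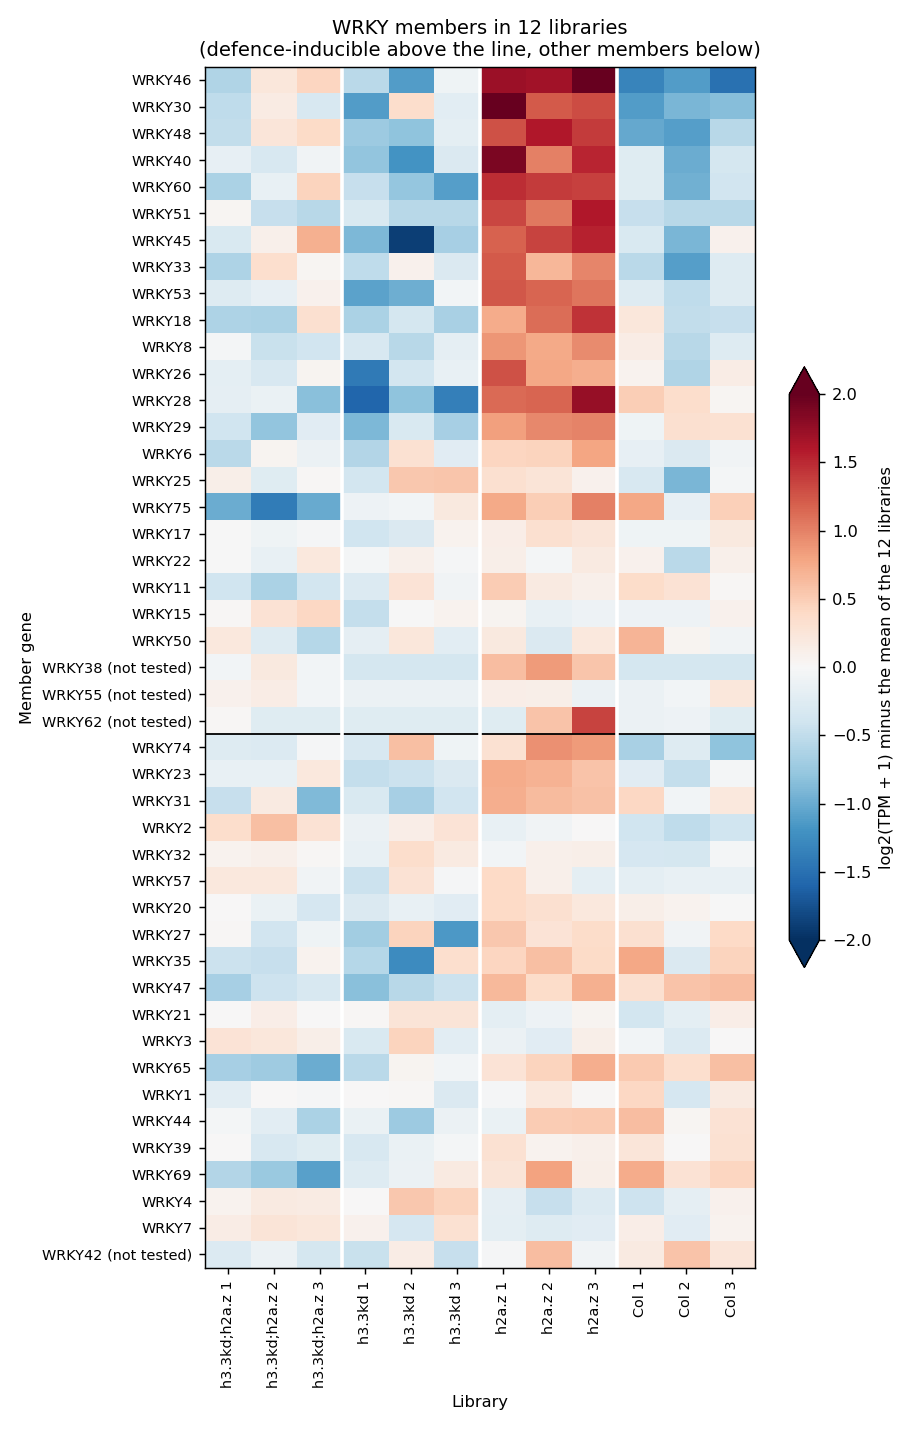
Each of the 45 members (one line each) in the 12 libraries, as log2(TPM + 1) minus the gene's mean over the 12 libraries, with colours ending at -2 and 2; defence-inducible members are above the black line and other members below, each ordered by the log2 fold change of h2a.z against Col with the members not tested last. The red block of the 3 h2a.z columns covers the upper part of the defence-inducible members and little of the other class.

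The comparison of h2a.z with Col asks how the family stands when H2A.Z is reduced. The H3.3 genes HTR5 and HTR8 were also lower in this line, as given above. A member is said to have risen or fallen where limma's moderated test gave an adjusted p under 0.05 (Benjamini-Hochberg, over 19937 tested genes). Of the 22 defence-inducible members tested, 15 rose and 0 fell, against 2 and 0 of the 19 other members. Over all tested genes 10.5% rose and 4.56% fell. With quantile normalization, which forces all libraries to 1 distribution, 9.41% of all genes rose and 7.59% fell, and the counts of members were as given. The median log2 fold change was 1.07 for the defence-inducible members and 0.07 for the other members, against 0.05 for all genes, and quantile normalization turned that of the other members to -0.02. Without WRKY51 and WRKY8, 13 of 20 rose. WRKY30 is still among these 13, although it was tested only with its h2a.z libraries, which favours a rise. The difference between the classes itself was not tested. The libraries of h2a.z and Col did not overlap for any of the 15. This adds no support, since genes picked by the test tend to separate. For WRKY51 and WRKY8 the TPM minimum fixed it in advance. The share without overlap over all genes was not counted. Fold changes are on the log2(TPM + 1) scale, which understates the change of genes at low levels, and are given ± standard error with n = 3 libraries a genotype.

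The group III members include the highest change of the family. WRKY46, known to act with WRKY53 and WRKY70 in basal resistance, had 9.49, 9.21 and 14.1 TPM in h2a.z, against 0.279, 0.479 and 0.139 TPM in Col (log2 fold change 3.18 ± 0.31, adjusted p = 8.6e-06). The gene was close to silent in Col and plainly present in each h2a.z library. WRKY53, a regulator of leaf senescence and of defence, had 9.37, 8.82 and 8.15 TPM in h2a.z, against 2.67, 2.06 and 2.66 TPM in Col (log2 fold change 1.499 ± 0.26, adjusted p = 0.00096), or 3.56-fold by the means. WRKY30, induced by reactive oxygen and pathogens, had 7.75, 4.07 and 4.34 TPM in h2a.z, against 0, 0.155 and 0.202 TPM in Col (log2 fold change 2.47 ± 0.34, adjusted p = 0.00018). It too was near 0 in Col, with h2a.z 1 the highest library. The remaining members of group III, WRKY38 (AT5G22570), WRKY55 (AT2G40740) and WRKY62 (AT5G01900), were too low to be tested.

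All 3 members of group IIa rose. WRKY18, WRKY40 and WRKY60 bind one another and are known mainly for restraining basal defence after infection. WRKY40 had 13.8, 7.11 and 10.6 TPM in h2a.z, against 2.39, 1.02 and 2.16 TPM in Col (log2 fold change 2.002 ± 0.29, adjusted p = 0.00026). WRKY60 had 9.02, 8.51 and 8.33 TPM in h2a.z, against 2.03, 0.845 and 1.78 TPM in Col (log2 fold change 1.95 ± 0.29, adjusted p = 0.00031). WRKY18 had 5.52, 7.38 and 9.62 TPM in h2a.z, against 3.53, 1.75 and 1.80 TPM in Col (log2 fold change 1.35 ± 0.30, adjusted p = 0.006). In all 3 genes the lowest h2a.z library was above the highest Col library, and WRKY60 varied least among the h2a.z libraries.

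In group I, the members linked to the MAP kinase pathway and to heat rose in part. WRKY33, which drives synthesis of the antimicrobial compound camalexin and resistance to necrotrophic fungi, had 48.9, 32.7 and 41.1 TPM in h2a.z, against 13.6, 8.96 and 16.8 TPM in Col (log2 fold change 1.59 ± 0.26, adjusted p = 0.00079), or 3.12-fold by the means. It was the most abundant of the members that rose, with no overlap between the genotypes. WRKY26 (AT5G07100), which acts with WRKY25 (AT2G30250) and WRKY33 in heat tolerance, averaged 19.9 ± 4.62 TPM in h2a.z and 9.15 ± 2.66 TPM in Col (SD, n = 3; log2 fold change 1.05 ± 0.30, adjusted p = 0.028). WRKY25 averaged 25.1 ± 2.18 TPM in h2a.z and 16.1 ± 4.91 TPM in Col (SD, n = 3) and did not pass the test (log2 fold change 0.65 ± 0.25, adjusted p = 0.11), although its libraries were apart.

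Group IIc held 6 of 9 members that rose, of which WRKY23 (AT2G47260) belongs to the other class. Among the 6, WRKY51 and WRKY8 were tested only through their h2a.z libraries. WRKY48, a repressor of basal resistance to bacteria, had 8.02, 10.4 and 8.82 TPM in h2a.z, against 0.839, 0.731 and 1.55 TPM in Col (log2 fold change 2.32 ± 0.27, adjusted p = 4.1e-05). WRKY51, which with WRKY50 (AT5G26170) takes part in the repression of jasmonate signalling by salicylic acid, had 2.73, 2.06 and 3.48 TPM in h2a.z, against 0.066, 0 and 0 TPM in Col (log2 fold change 1.86 ± 0.24, adjusted p = 0.0001). WRKY51 was listed at 0 in Col 2 and Col 3, and its partner WRKY50 averaged 3.21 ± 0.79 TPM in h2a.z and 3.84 ± 1.44 TPM in Col (SD, n = 3) and did not pass the test (adjusted p = 0.73). WRKY45 (AT3G01970), an activator of the phosphate transporter gene PHT1;1 (AT5G43350), had 15.8, 17.9 and 20.6 TPM in h2a.z, against 5.02, 2.96 and 6.91 TPM in Col (log2 fold change 1.73 ± 0.34, adjusted p = 0.0028). WRKY28 (AT4G18170), an activator of the salicylic acid synthesis gene ICS1 (AT1G74710), had 7.57, 7.74 and 12.1 TPM in h2a.z, against 4.49, 3.97 and 3.01 TPM in Col (log2 fold change 1.05 ± 0.28, adjusted p = 0.018). WRKY8, known from salt tolerance and from restraint of resistance to bacteria, stood at 1.70, 1.47 and 1.82 TPM in h2a.z, against 0.634, 0 and 0.223 TPM in Col (log2 fold change 1.08 ± 0.24, adjusted p = 0.0072). Each of these genes had its libraries apart. For WRKY8 and WRKY51 the TPM minimum fixed this in advance, since they passed it only through h2a.z and so were under 1 TPM in each Col library.

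In group IIe, WRKY29 and WRKY22 (AT4G01250) act together below the FLS2 kinase cascade. WRKY29 averaged 12.8 ± 0.85 TPM in h2a.z and 7.26 ± 1.23 TPM in Col (SD, n = 3; log2 fold change 0.75 ± 0.22, adjusted p = 0.03). WRKY22 averaged 12.04 ± 1.05 TPM in h2a.z and 10.5 ± 2.71 TPM in Col (SD, n = 3; log2 fold change 0.21 ± 0.19, adjusted p = 0.56). In group IIb, WRKY6 (AT1G62300), a regulator of senescence and of phosphate export, averaged 25.5 ± 3.81 TPM in h2a.z and 14.9 ± 1.20 TPM in Col (SD, n = 3; log2 fold change 0.73 ± 0.22, adjusted p = 0.036). The defence-inducible members of group IId, whose proteins bind calmodulin, did not pass the test: WRKY11 (AT4G31550), WRKY15 and WRKY17 (AT2G24570) had log2 fold changes of 0.04, -0.03 and 0.22. WRKY11 and WRKY17 restrain basal resistance and their libraries overlapped those of Col. WRKY75 (AT5G13080), which acts in phosphate starvation and root hairs, had 8.21, 6.66 and 9.89 TPM in h2a.z, against 8.32, 3.88 and 6.60 TPM in Col (log2 fold change 0.38 ± 0.25, adjusted p = 0.37), with overlapping libraries.

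Of the other members, 2 rose in h2a.z. WRKY23, which acts in auxin transport and root development, had 10.4, 10.1 and 9.23 TPM in h2a.z, against 4.88, 3.92 and 5.71 TPM in Col (log2 fold change 0.92 ± 0.19, adjusted p = 0.0039). WRKY74 (AT5G28650), of group IId, had 1.71, 3.14 and 2.96 TPM in h2a.z, against 0.403, 0.845 and 0.268 TPM in Col (log2 fold change 1.25 ± 0.28, adjusted p = 0.0064). The libraries of both genes stood apart between the genotypes. The remaining 17 of the 19 had log2 fold changes from -0.22 (WRKY7, AT4G24240) to 0.46 (WRKY31, AT4G22070), among them WRKY3 (AT2G03340) and WRKY4 (AT1G13960), known from resistance to necrotrophic fungi, at 0.03 and -0.14, and the drought gene WRKY57 (AT1G69310) at 0.27. WRKY1 (AT2G04880), WRKY21 (AT2G30590), WRKY27 (AT5G52830), WRKY35 (AT2G34830) and WRKY39 (AT3G04670) lay in this range too, and none of the 5 was called in h3.3kd or the combined line against Col. WRKY44 (AT2G37260), known as TTG2 in trichome and seed coat development, averaged 4.09 ± 1.22 TPM in h2a.z and 4.11 ± 1.05 TPM in Col (SD, n = 3).

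Leaving out h2a.z 3 took the count of defence-inducible members that rose to 9, and leaving out h2a.z 1 or h2a.z 2 took it to 10 in each case. The WRKY28 call ended, with an adjusted p of 0.077 without Col 3 and 0.11 without h2a.z 3 (0.0018 to 0.11 over all settings). The WRKY26 call ended at 0.054 to 0.13 without Col 2, h2a.z 1, h2a.z 2 or h2a.z 3 (0.0053 to 0.13 over all settings), and the WRKY29 call at 0.054 to 0.11 without Col 1, Col 3, h2a.z 1, h2a.z 2 or h2a.z 3 (0.0075 to 0.11 over all settings). The WRKY6 call ended at 0.052 to 0.15 without Col 1, Col 2, Col 3, h2a.z 1, h2a.z 2, h2a.z 3 or combined 3 (0.0084 to 0.15 over all settings).

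**Figure D3:**
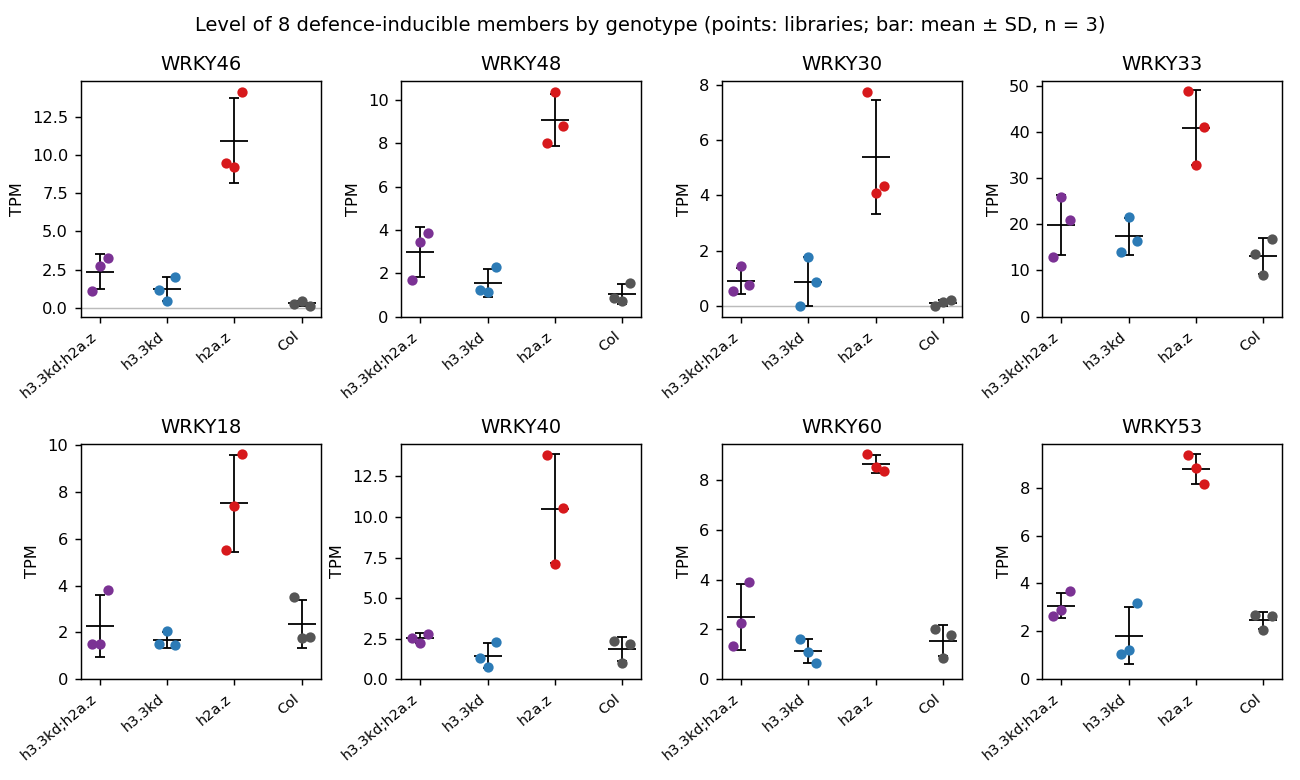
TPM of 8 defence-inducible members in the libraries of the combined line, h3.3kd, h2a.z and Col (points), with the mean ± SD of 3 libraries (black); each panel has its own linear axis. In every panel the 3 h2a.z libraries lie above all 9 other libraries.

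Genes around the WRKY proteins were counted by lists, which were drawn from general knowledge of the pathway. The lists too were chosen with earlier results of these data known, so their counts are a description. In h2a.z against Col, 10.5% of all tested genes rose and 4.56% fell. Of 13 tested receptor and MAP kinase genes, 1 rose in h2a.z and 0 fell: MPK3 (AT3G45640), a kinase that phosphorylates WRKY33, had 86.98, 66.4 and 66.5 TPM in h2a.z, against 34.9, 40.4 and 38.1 TPM in Col (log2 fold change 0.93 ± 0.21, adjusted p = 0.0073). The median of this list was 0.29, and its count that rose does not exceed the share of all genes. Without h3.3kd 1 or h3.3kd 2 in the fit, 2 and 3 genes of the list rose. Of 4 VQ protein partners, 2 rose: SIB1 (AT3G56710), a partner of WRKY33, had 8.24, 6.26 and 10.3 TPM in h2a.z, against 0.829, 0.69 and 1.43 TPM in Col (log2 fold change 2.22 ± 0.26, adjusted p = 3.6e-05). Its homologue SIB2 (AT2G41180) had 33.5, 30.1 and 27.2 TPM in h2a.z, against 16.4, 15.02 and 10.04 TPM in Col (log2 fold change 1.10 ± 0.21, adjusted p = 0.0022). Both had libraries apart, and without h3.3kd 2 the count was 3.

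Outputs of pattern signalling and direct WRKY33 targets rose in part as well, with 6 of 11 tested genes higher, 0 lower and a median of 1.95. The shares of all tested genes were 10.5% higher and 4.56% lower. Of the 6, FRK1, SAG13 and CYP71A13 were tested only with their h2a.z libraries, which favours a rise. PAD3 (AT3G26830), which makes the last step of camalexin synthesis, had 98.3, 75.5 and 134 TPM in h2a.z, against 5.69, 3.95 and 14.6 TPM in Col (log2 fold change 3.65 ± 0.84, adjusted p = 0.0078). CYP81F2 (AT5G57220), of indole glucosinolate synthesis, had 46.2, 32.9 and 38.9 TPM in h2a.z, against 5.49, 1.61 and 11.4 TPM in Col (log2 fold change 2.75 ± 0.55, adjusted p = 0.0031). FRK1 (AT2G19190), a marker of FLS2 signalling, had 1.29, 1.98 and 2.04 TPM in h2a.z, against 0, 0 and 0.0552 TPM in Col (log2 fold change 1.43 ± 0.25, adjusted p = 0.0012). The h2a.z libraries were highest for each of these genes, and FRK1 was listed at 0 in 2 Col libraries. NHL10 (AT2G35980), another marker of the pathway, had 12.6, 17.3 and 20.3 TPM in h2a.z, against 3.70, 4.83 and 2.36 TPM in Col (log2 fold change 1.95 ± 0.41, adjusted p = 0.0048). SAG13 (AT2G29350), a senescence and defence marker, had 6.69, 2.25 and 9.57 TPM in h2a.z, against 0.0656, 0 and 0.392 TPM in Col (log2 fold change 2.49 ± 0.43, adjusted p = 0.00098). CYP71A13 (AT2G30770), an earlier enzyme of camalexin synthesis, had 14.97, 9.75 and 26.8 TPM in h2a.z, against 0.259, 0 and 0.362 TPM in Col (log2 fold change 3.81 ± 0.80, adjusted p = 0.0045), but reads shared with its close copy CYP71A12 (AT2G30750) make both uncertain. ICS1 averaged 5.64 ± 0.193 TPM in h2a.z and 4.37 ± 1.59 TPM in Col (SD, n = 3; log2 fold change 0.34 ± 0.22, adjusted p = 0.37), and PR1 (AT2G14610), the classical salicylic acid marker, was above 0 only in Col 1, at 0.239 TPM.

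Other lists moved in the same libraries, and their part in the result was not tested. Of 11 genes that respond within minutes to touch, handling or calcium, 7 rose in h2a.z and 0 fell, with a median of 1.09. Over all tested genes 10.5% rose and 4.56% fell in this comparison. Summed levels of the rapid stress genes were 309 to 348 TPM in h2a.z and 194 to 224 TPM in Col. MYB15 (AT3G23250), of lignin and cold responses, had 8.34, 6.12 and 11.9 TPM in h2a.z, against 0.127, 0 and 0 TPM in Col (log2 fold change 3.19 ± 0.24, adjusted p = 5.5e-07). TCH3 (AT2G41100), a touch-induced calmodulin-like protein, had 46.3, 34.7 and 37.9 TPM in h2a.z, against 6.27, 5.19 and 6.21 TPM in Col (log2 fold change 2.55 ± 0.26, adjusted p = 1.3e-05). ZAT10 (AT1G27730), a stress zinc finger, had 25.9, 16.8 and 23.3 TPM in h2a.z, against 3.64, 1.99 and 3.96 TPM in Col (log2 fold change 2.47 ± 0.28, adjusted p = 2.9e-05). The h2a.z libraries were highest in all of these, and CML37 also rose, at 2.08, 2.53 and 3.16 TPM in h2a.z, against 0.549, 0 and 0.313 TPM in Col (log2 fold change 1.49 ± 0.24, adjusted p = 0.00068). CML37 passed the TPM minimum only through its h2a.z libraries, and without it 6 of 10 rose. Of the 7, MYB15 and CML38 were also tested only with their h2a.z libraries. Without h2a.z 3 the count of the list was 4. Of 13 tested root markers, 2 rose and 0 fell, with summed levels of 294 to 327 TPM in h2a.z and 218 to 257 TPM in Col, and NRT2.1 (AT1G08090) was at 0 in Col 1 and Col 2. The root markers that rose were IRT1 (AT4G19690) (log2 fold change 1.15 ± 0.32, adjusted p = 0.025) and PHT1;1 (log2 fold change 0.86 ± 0.26, adjusted p = 0.036). The IRT1 call ended at 0.053 to 0.1 without Col 1, Col 2, Col 3, h2a.z 1, h2a.z 2 or h2a.z 3 (0.00076 to 0.1 over all settings), and the PHT1;1 call at 0.051 to 0.14 without Col 1, Col 2, Col 3, h2a.z 2, h2a.z 3 or combined 3 (0.00036 to 0.14 over all settings).

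**Figure D4:**
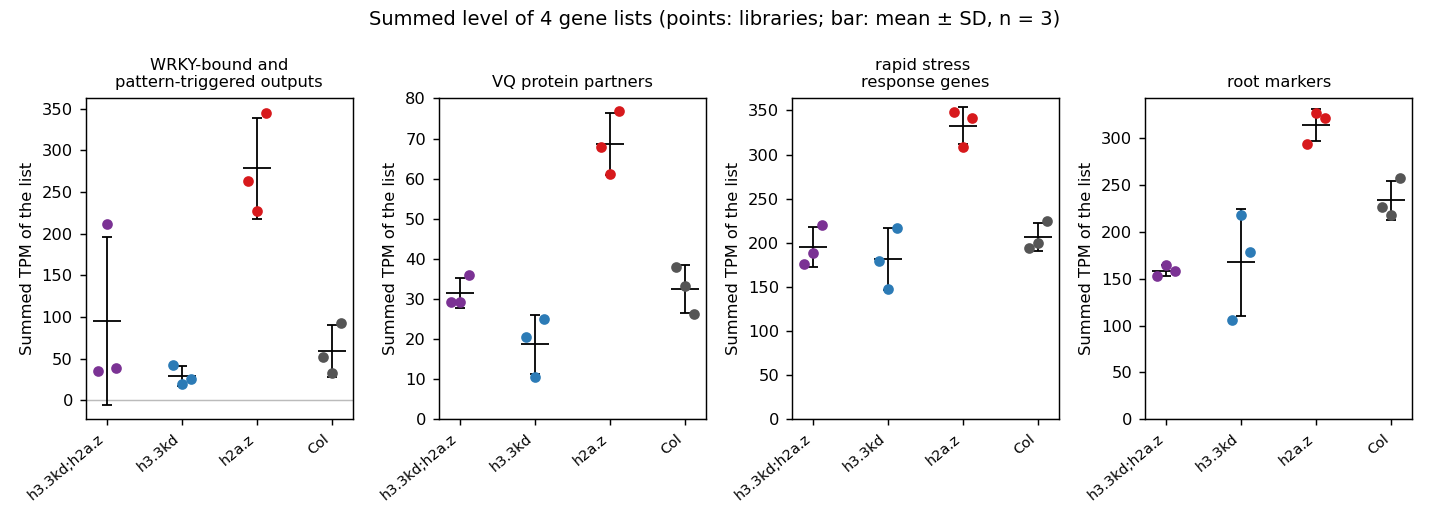
Summed TPM of 4 gene lists (12 output genes, 4 VQ protein genes, 11 rapid stress genes and 14 root markers) in the libraries of the combined line, h3.3kd, h2a.z and Col (points), with the mean ± SD of 3 libraries (black). The h2a.z libraries are highest in each panel, and combined 2 stands at 211 TPM for the outputs, against 35.1 and 39.3 TPM in the other libraries of the combined line.

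Few members passed the test in h3.3kd against Col, the comparison for the line in which H3.3 alone was targeted. The H2A.Z gene HTA8 also fell there, with an average of 8.86 TPM in h3.3kd and 14.8 TPM in Col. Of the defence-inducible members 0 rose and 2 fell, and of the other members 1 rose and 2 fell, against 5.41% of all genes that rose and 11.9% that fell. With quantile normalization 8.18% of all genes rose and 7.49% fell, 2 defence-inducible members rose and 1 fell, and 4 other members rose and 2 fell. Leaving out h3.3kd 2, the library that stands apart, gave 1 defence-inducible member that rose and 2 that fell, and 1 and 3 other members. Without h3.3kd 1, 2 defence-inducible and 3 other members rose, and 1 of each class fell. The count of defence-inducible members that fell was also 1 without Col 2, Col 3 or h3.3kd 3, and that of the other members was 1 without Col 1 or Col 3. The count of other members that rose was 0 without Col 1, Col 2, h2a.z 2, h2a.z 3, h3.3kd 3 or any library of the combined line. The median log2 fold change was -0.22 for the defence-inducible members and -0.16 for the other members, against -0.12 for all genes, and quantile normalization moved that of the defence-inducible members to 0.05.

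WRKY28 fell to 0.304, 1.24 and 0.512 TPM in h3.3kd, against 4.49, 3.97 and 3.01 TPM in Col (log2 fold change -1.54 ± 0.28, adjusted p = 0.0021). WRKY47 (AT4G01720), a group IIb member, fell to 2.29, 2.998 and 3.38 TPM in h3.3kd, against 6.35, 7.70 and 7.99 TPM in Col (log2 fold change -1.11 ± 0.20, adjusted p = 0.0021). For both genes every h3.3kd library was below every Col library, and no library left out ended the call. WRKY29 had 2.88, 4.86 and 3.59 TPM in h3.3kd, against 5.84, 8.03 and 7.92 TPM in Col (log2 fold change -0.80 ± 0.22, adjusted p = 0.021). WRKY65 (AT1G29280), of group IIe, had 16.9, 25.8 and 23.98 TPM in h3.3kd, against 36.4, 31.7 and 38.5 TPM in Col (log2 fold change -0.67 ± 0.18, adjusted p = 0.02). WRKY2 (AT5G56270), which acts in embryo polarity and pollen, rose, with 9.29, 11.3 and 12.4 TPM in h3.3kd, against 7.41, 6.83 and 7.49 TPM in Col (log2 fold change 0.53 ± 0.17, adjusted p = 0.04). The libraries of these 3 genes were apart between the genotypes. The WRKY29 call ended at 0.054 to 0.066 without Col 2, Col 3, h3.3kd 1 or h3.3kd 3 (0.00072 to 0.11 over all settings). The WRKY65 call ended at 0.058 to 0.066 without Col 1, Col 3 or h3.3kd 1 (0.0034 to 0.097 over all settings). The WRKY2 call ended at 0.053 to 0.13 without Col 1, Col 2, Col 3, h2a.z 2, h2a.z 3, combined 1, combined 2, combined 3 or h3.3kd 3 (0.0019 to 0.23 over all settings). With the replicate number as a block in a fit of h3.3kd and Col alone, 1 defence-inducible member fell, and of the other members 0 rose and 1 fell. The adjusted p was then 0.11 for WRKY29, 0.079 for WRKY65 and 0.23 for WRKY2. Without the block, the limma fit of h3.3kd and Col alone gave 0.11, 0.097 and 0.19, so these calls ended without it as well.

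The members that led the rise in h2a.z were not called here. WRKY46 had 1.19, 0.475 and 2.02 TPM in h3.3kd, against 0.279, 0.479 and 0.139 TPM in Col (log2 fold change 0.73 ± 0.31, adjusted p = 0.13), and its libraries overlapped those of Col. WRKY33 had 13.95, 21.7 and 16.5 TPM in h3.3kd (log2 fold change 0.40 ± 0.26, adjusted p = 0.33). WRKY53 had 1.08, 1.21 and 3.20 TPM in h3.3kd (log2 fold change -0.37 ± 0.26, adjusted p = 0.36). WRKY40 had 1.32, 0.756 and 2.27 TPM in h3.3kd (log2 fold change -0.23 ± 0.29, adjusted p = 0.63). WRKY18 had 1.49, 2.05 and 1.48 TPM in h3.3kd (log2 fold change -0.30 ± 0.30, adjusted p = 0.54). All of these overlapped Col. Around the family, 1 of 4 VQ partners fell, SIB2, with 3.22, 2.26 and 3.51 TPM in h3.3kd, against 16.4, 15.02 and 10.04 TPM in Col (log2 fold change -1.88 ± 0.21, adjusted p = 6.1e-05). Of 11 output genes 1 rose and 2 fell, of 11 rapid stress genes 0 rose and 2 fell, and of 13 receptor and kinase genes 0 passed either way. These counts stand beside 5.41% of all tested genes that rose and 11.9% that fell. The output genes were ICS1 (log2 fold change 0.78 ± 0.22, adjusted p = 0.029), ACS6 (AT4G11280) (log2 fold change -1.10 ± 0.28, adjusted p = 0.016) and PHI-1 (AT1G35140) (log2 fold change -1.27 ± 0.35, adjusted p = 0.024). The ICS1 call ended at 0.063 to 0.099 without Col 2, Col 3 or h3.3kd 2 (0.0014 to 0.18 over all settings). The ACS6 and PHI-1 calls ended at 0.05 without Col 1 and 0.052 without Col 3 (0.006 to 0.065 over all settings) and at 0.082 without Col 1 and 0.05 without Col 2 (0.012 to 0.12 over all settings). The rapid stress genes were TCH4 (AT5G57560) (log2 fold change -1.58 ± 0.18, adjusted p = 7.2e-05), a wall-modifying enzyme, and TCH2 (AT5G37770) (log2 fold change -0.86 ± 0.27, adjusted p = 0.041), the call of which ended at 0.051 to 0.12 without Col 1, Col 2, h2a.z 1, h2a.z 2, h2a.z 3, combined 1, combined 2, h3.3kd 2 or h3.3kd 3 (0.011 to 0.17 over all settings). Of 13 root markers 0 rose and 5 fell, with summed levels of 106 to 218 TPM in h3.3kd and 218 to 257 TPM in Col, and NRT2.1 was at 0 in h3.3kd 2 and h3.3kd 3. The part of the root markers in these values was not tested.

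The combined line against Col shows the family when both histone variants are reduced. Of the defence-inducible members 2 rose and 3 fell, and of the other members 1 rose and 3 fell, against 6.17% of all genes that rose and 12.6% that fell. With quantile normalization 9.03% of all genes rose and 9.07% fell, 2 defence-inducible members rose and 2 fell, and 2 other members rose and 3 fell. Median log2 fold changes were 0.17 and -0.15 for the defence-inducible and the other members, against -0.10 for all genes.

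WRKY46 rose, with 1.10, 2.73 and 3.29 TPM in the combined line, against 0.279, 0.479 and 0.139 TPM in Col (log2 fold change 1.32 ± 0.31, adjusted p = 0.009). WRKY48 rose, with 1.67, 3.43 and 3.86 TPM in the combined line, against 0.839, 0.731 and 1.55 TPM in Col (log2 fold change 0.94 ± 0.27, adjusted p = 0.026). Neither gene had overlapping libraries. The WRKY46 call ended at 0.051 without combined 3 (0.0024 to 0.051 over all settings) and the WRKY48 call at 0.079 to 0.12 without Col 1, Col 2, combined 2 or combined 3 (0.007 to 0.12 over all settings). WRKY75 fell, with 1.75, 1.07 and 1.70 TPM in the combined line, against 8.32, 3.88 and 6.60 TPM in Col (log2 fold change -1.499 ± 0.25, adjusted p = 0.00084), a call kept with any library left out. WRKY11 had 18.7, 15.8 and 19.1 TPM in the combined line, against 32.5, 30.9 and 25.4 TPM in Col (log2 fold change -0.70 ± 0.17, adjusted p = 0.012), and its call ended at 0.064 without combined 2 (0.0026 to 0.064 over all settings). WRKY29 averaged 4.29 ± 1.01 TPM in the combined line and 7.26 ± 1.23 TPM in Col (SD, n = 3; log2 fold change -0.65 ± 0.22, adjusted p = 0.049), and its call ended at 0.055 to 0.21 without Col 2, Col 3, h2a.z 1, h2a.z 2, h2a.z 3, combined 1, combined 2, combined 3 or h3.3kd 3 (0.0034 to 0.21 over all settings). WRKY75 has roles in phosphate starvation and root hairs, and its level in all 3 libraries of the combined line was below that of any other library. Leaving out combined 3 took the count of defence-inducible members that rose to 0, and combined 2, Col 1 or Col 2 to 1, while without combined 2 the count that fell was 1.

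Of the other members, 3 fell and 1 rose, and none of these calls ended when a library was left out. WRKY65 had 15.3, 14.8 and 12.01 TPM in the combined line, against 36.4, 31.7 and 38.5 TPM in Col (log2 fold change -1.28 ± 0.18, adjusted p = 0.00021). WRKY69 (AT3G58710), also of group IIe, had 3.16, 2.76 and 1.95 TPM in the combined line, against 9.46, 6.64 and 7.39 TPM in Col (log2 fold change -1.29 ± 0.23, adjusted p = 0.0016). WRKY47 had 2.69, 3.43 and 3.69 TPM in the combined line, against 6.35, 7.70 and 7.99 TPM in Col (log2 fold change -0.97 ± 0.20, adjusted p = 0.0037). Each of these 3 was lower in every library of the combined line than in any Col library. WRKY2 had 13.3, 15.8 and 12.6 TPM in the combined line, against 7.41, 6.83 and 7.49 TPM in Col (log2 fold change 0.85 ± 0.17, adjusted p = 0.0027), with all libraries of the combined line higher. WRKY33, WRKY40, WRKY53 and WRKY18 had log2 fold changes of 0.55 ± 0.26, 0.34 ± 0.29, 0.23 ± 0.26 and -0.07 ± 0.30, with adjusted p of 0.17, 0.46, 0.58 and 0.90, and their libraries overlapped those of Col.

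Around the family, 2 of 13 receptor and kinase genes rose, the flagellin receptor FLS2 and the receptor-associated kinase BIK1 (AT2G39660). The list counts stand beside 6.17% of all tested genes that rose and 12.6% that fell. FLS2 had 17.4, 17.7 and 17.3 TPM in the combined line, against 9.53, 12.4 and 12.6 TPM in Col (log2 fold change 0.57 ± 0.17, adjusted p = 0.033). BIK1 had 34.5, 34.2 and 39.4 TPM in the combined line, against 24.5, 21.5 and 25.5 TPM in Col (log2 fold change 0.58 ± 0.15, adjusted p = 0.017). The FLS2 call ended at 0.088 to 0.12 without Col 1, combined 1, combined 2 or combined 3 (0.0047 to 0.12 over all settings) and the BIK1 call at 0.057 without Col 2 and 0.08 without combined 3 (0.0018 to 0.08 over all settings). Of the VQ partners SIB2 fell (log2 fold change -0.92 ± 0.21, adjusted p = 0.0069), and of 11 outputs 0 rose and 1 fell, ACS6 (log2 fold change -0.87 ± 0.28, adjusted p = 0.043), whose call ended at 0.05 to 0.19 without Col 1, Col 2, Col 3, h2a.z 1, combined 1, combined 3 or h3.3kd 3 (0.0076 to 0.19 over all settings). The rapid stress list had 3 higher and 1 lower, with summed levels of 176 to 220.2 TPM in the combined line and 194 to 224 TPM in Col. They were MYB15 (log2 fold change 1.02 ± 0.24, adjusted p = 0.0084), TCH3 (log2 fold change 0.94 ± 0.26, adjusted p = 0.022) and ZAT10 (log2 fold change 0.91 ± 0.28, adjusted p = 0.034), which rose, and TCH4 (log2 fold change -1.38 ± 0.18, adjusted p = 0.00011), which fell. The TCH3 call ended at 0.063 to 0.11 without Col 2, combined 2 or combined 3 (0.0029 to 0.11 over all settings) and the ZAT10 call at 0.052 to 0.12 without Col 1, Col 2, combined 1, combined 2 or combined 3 (0.0088 to 0.12 over all settings). Of 13 root markers 0 rose and 6 fell, with sums of 153 to 165 TPM in the combined line and 218 to 257 TPM in Col, and NRT2.1 was at 0 in every library of the combined line. Their part in the falls of WRKY members was not tested.

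**Figure D5:**
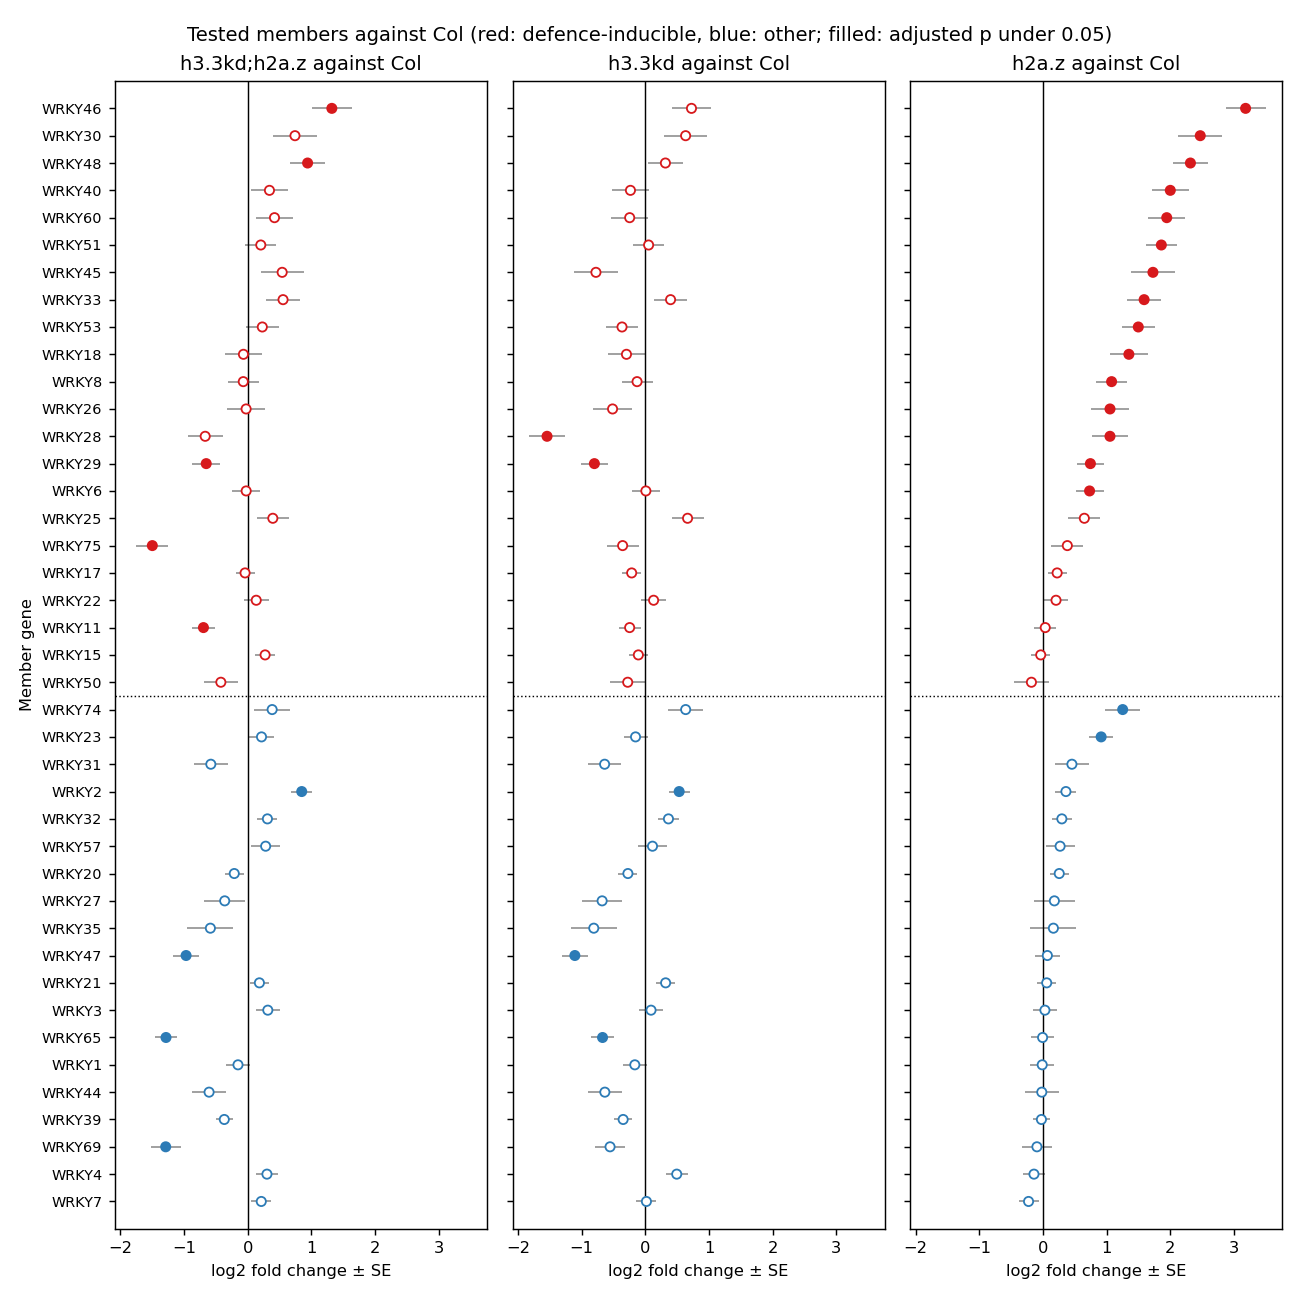
Log2 fold change ± SE of the 41 tested members against Col in the combined line, h3.3kd and h2a.z (3 panels, one axis), with defence-inducible members in red above the dotted line and other members in blue below it; filled points passed an adjusted p under 0.05. In the h2a.z panel 15 red and 2 blue points are filled to the right of 0, and in the other panels filled points lie on both sides.

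Setting the combined line against h2a.z asks what lowered H3.3 does where H2A.Z is reduced, and here most defence-inducible members fell. HTA9 averaged 87.2 TPM in the combined line and 32.1 TPM in h2a.z. Lowered H3.3 and the smaller loss of this H2A.Z transcript cannot be told apart here. Of 22 tested, 0 rose and 17 fell, and of the 19 other members 1 rose and 7 fell, against 5.34% of all genes that rose and 19.3% that fell. Without WRKY51 and WRKY8, tested only through their h2a.z libraries, 15 of 20 fell. WRKY30 is still among these 15, although it too needed its h2a.z libraries to be tested, which favours a fall. With quantile normalization 12.3% of all genes rose and 12.4% fell, 0 defence-inducible members rose and 16 fell, and 3 other members rose and 3 fell. The median log2 fold change was -1.23 for the defence-inducible and -0.47 for the other members, against -0.15 for all genes. The h2a.z libraries also serve in the comparison of h2a.z with Col, so the rise there and the fall here rest on shared values, and no overlap of the 2 is counted.

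WRKY46 fell to 1.10, 2.73 and 3.29 TPM in the combined line, against 9.49, 9.21 and 14.1 TPM in h2a.z (log2 fold change -1.86 ± 0.31, adjusted p = 0.00062). WRKY40 fell to 2.57, 2.23 and 2.81 TPM in the combined line, against 13.8, 7.11 and 10.6 TPM in h2a.z (log2 fold change -1.66 ± 0.29, adjusted p = 0.00083). WRKY60 fell to 1.32, 2.27 and 3.92 TPM in the combined line, against 9.02, 8.51 and 8.33 TPM in h2a.z (log2 fold change -1.53 ± 0.29, adjusted p = 0.0015). WRKY18 fell to 1.52, 1.501 and 3.82 TPM in the combined line, against 5.52, 7.38 and 9.62 TPM in h2a.z (log2 fold change -1.42 ± 0.30, adjusted p = 0.0029). In each of these genes no library of the combined line reached the lowest h2a.z library. WRKY53 fell to 2.64, 2.91 and 3.67 TPM in the combined line, against 9.37, 8.82 and 8.15 TPM in h2a.z (log2 fold change -1.27 ± 0.26, adjusted p = 0.0023). WRKY33 fell to 12.9, 25.8 and 21.02 TPM in the combined line, against 48.9, 32.7 and 41.1 TPM in h2a.z (log2 fold change -1.04 ± 0.26, adjusted p = 0.01), and this call ended at 0.052 without h2a.z 1 and 0.06 without combined 1 (0.002 to 0.06 over all settings). Combined 1 was the lowest library of WRKY33 and h2a.z 1 the highest.

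WRKY75 had the smallest adjusted p, with 1.75, 1.07 and 1.70 TPM in the combined line, against 8.21, 6.66 and 9.89 TPM in h2a.z (log2 fold change -1.88 ± 0.25, adjusted p = 9.3e-05). WRKY28 had 2.46, 2.58 and 1.20 TPM in the combined line, against 7.57, 7.74 and 12.1 TPM in h2a.z (log2 fold change -1.72 ± 0.28, adjusted p = 0.00044). WRKY29 had 4.49, 3.19 and 5.18 TPM in the combined line, against 11.8, 13.1 and 13.4 TPM in h2a.z (log2 fold change -1.40 ± 0.22, adjusted p = 0.00032). WRKY51 had 0.521, 0.0736 and 0 TPM in the combined line, against 2.73, 2.06 and 3.48 TPM in h2a.z (log2 fold change -1.66 ± 0.24, adjusted p = 0.00021). None of these 4 genes had overlapping libraries, and WRKY51 was listed at 0 in combined 3. WRKY48 (log2 fold change -1.38 ± 0.27, adjusted p = 0.0019), WRKY30 (log2 fold change -1.73 ± 0.34, adjusted p = 0.002), WRKY8 (log2 fold change -1.15 ± 0.24, adjusted p = 0.0032) and WRKY11 (log2 fold change -0.73 ± 0.17, adjusted p = 0.0067) fell as well. So did WRKY26 (log2 fold change -1.08 ± 0.30, adjusted p = 0.017), WRKY45 (log2 fold change -1.19 ± 0.34, adjusted p = 0.019) and WRKY6 (log2 fold change -0.76 ± 0.22, adjusted p = 0.021). The WRKY26 call ended at 0.054 to 0.082 without h2a.z 1, combined 1 or combined 2 (0.0012 to 0.082 over all settings), and the WRKY45 call at 0.055 to 0.096 without h2a.z 2, h2a.z 3, combined 1 or combined 2 (0.00077 to 0.096 over all settings). The WRKY6 call ended at 0.096 without h2a.z 3 and 0.11 without combined 1 (0.00068 to 0.11 over all settings). The defence-inducible members that did not pass were WRKY15, WRKY17, WRKY22, WRKY25 and WRKY50.

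Among the other members, WRKY65 and WRKY69 fell, and so did WRKY47. WRKY65 had 15.3, 14.8 and 12.01 TPM in the combined line, against 30.4, 34.5 and 41.97 TPM in h2a.z (log2 fold change -1.28 ± 0.18, adjusted p = 0.00015). WRKY69 had 3.16, 2.76 and 1.95 TPM in the combined line, against 6.45, 9.94 and 5.78 TPM in h2a.z (log2 fold change -1.20 ± 0.23, adjusted p = 0.0019). WRKY47 had 2.69, 3.43 and 3.69 TPM in the combined line, against 8.18, 6.57 and 8.58 TPM in h2a.z (log2 fold change -1.04 ± 0.20, adjusted p = 0.0016). Libraries were apart in all of them. The further 4 were WRKY31 (log2 fold change -1.04 ± 0.26, adjusted p = 0.01), WRKY23 (log2 fold change -0.70 ± 0.19, adjusted p = 0.014), WRKY74 (log2 fold change -0.87 ± 0.28, adjusted p = 0.034) and WRKY20 (log2 fold change -0.47 ± 0.15, adjusted p = 0.034). The WRKY31 call ended at 0.058 without combined 3 (0.0013 to 0.14 over all settings), and the WRKY23 call at 0.052 to 0.065 without h2a.z 1, h2a.z 2, combined 1 or combined 2 (0.00097 to 0.095 over all settings). The WRKY74 call ended at 0.056 to 0.14 without h2a.z 2, h2a.z 3, combined 1, combined 2 or combined 3 (0.00073 to 0.39 over all settings), and the WRKY20 call at 0.058 to 0.15 without h2a.z 1, h2a.z 2, h2a.z 3, combined 2 or combined 3 (0.0044 to 0.17 over all settings). WRKY2 rose (log2 fold change 0.49 ± 0.17, adjusted p = 0.045), and its call ended at 0.051 to 0.19 without Col 2, Col 3, h2a.z 1, h2a.z 2, h2a.z 3, combined 1, combined 2 or combined 3 (0.0031 to 0.19 over all settings). The count of other members that fell was 4 without h2a.z 2, combined 2 or combined 3, and the count that rose was 2 without h3.3kd 1 or h3.3kd 3 and 3 without h3.3kd 2.

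The lists around the family fell in part too, beside 5.34% of all tested genes that rose and 19.3% that fell. Of 11 outputs 0 rose and 8 fell, with 5 without h2a.z 2, h2a.z 3 or combined 1, and summed levels were 35.1, 211 and 39.3 TPM in the combined line, against 263, 227 and 345 TPM in h2a.z. Combined 2 stood apart from the other libraries of its genotype, near the h2a.z range. PAD3 had 1.23, 56.7 and 3.53 TPM in the combined line, against 98.3, 75.5 and 134 TPM in h2a.z (log2 fold change -3.59 ± 0.84, adjusted p = 0.0059, and -4.98 without combined 2). CYP71A12 had 4.07, 77.96 and 3.07 TPM in the combined line, against 37.8, 43.5 and 62.04 TPM in h2a.z. ACS6, an ethylene synthesis gene, had 3.02, 6.47 and 2.43 TPM in the combined line, against 12.2, 9.54 and 17.7 TPM in h2a.z (log2 fold change -1.55 ± 0.28, adjusted p = 0.001). WRKY33 in combined 2 was at 25.8 TPM, the highest of its genotype, but below every h2a.z library. NHL10 (log2 fold change -1.88 ± 0.41, adjusted p = 0.0041) and SAG13 (log2 fold change -2.22 ± 0.43, adjusted p = 0.0017) fell. SAG13, FRK1 and CYP71A13 are among the outputs that fell and were tested only with their h2a.z libraries, which favours a fall. Of 4 VQ partners 3 fell, SIB1 (log2 fold change -2.11 ± 0.26, adjusted p = 4.3e-05), SIB2 (log2 fold change -2.02 ± 0.21, adjusted p = 1.1e-05) and JAV1 (AT3G22160) (log2 fold change -1.63 ± 0.41, adjusted p = 0.0095), a repressor of jasmonate defence. The JAV1 call ended at 0.056 without h2a.z 3 and 0.051 without combined 1 (0.00032 to 0.14 over all settings). Of 13 receptor and kinase genes 0 rose and 3 fell, MPK3 (log2 fold change -0.87 ± 0.21, adjusted p = 0.0075), MKK2 (AT4G29810) (log2 fold change -0.55 ± 0.16, adjusted p = 0.022) and the chitin receptor CERK1 (AT3G21630) (log2 fold change -0.42 ± 0.14, adjusted p = 0.038). The MKK2 call ended at 0.06 to 0.084 without h2a.z 1, h2a.z 2, combined 1 or combined 3 (0.00052 to 0.084 over all settings) and the CERK1 call at 0.076 to 0.13 without h2a.z 1, h2a.z 2, h2a.z 3, combined 1, combined 2 or combined 3 (0.0022 to 0.16 over all settings).

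Of 11 rapid stress genes 0 rose and 8 fell, with summed levels of 176 to 220.2 TPM in the combined line and 309 to 348 TPM in h2a.z. In this comparison 5.34% of all tested genes rose and 19.3% fell. MYB15 (log2 fold change -2.17 ± 0.24, adjusted p = 1.8e-05) and TCH4 (log2 fold change -1.71 ± 0.18, adjusted p = 1.2e-05) had the smallest adjusted p. Without h2a.z 1, h2a.z 3 or combined 1 the count was 5. Of 13 root markers 0 rose and 9 fell, with summed levels of 153 to 165 TPM in the combined line and 294 to 327 TPM in h2a.z. Without CML37 and PLT2, 7 of 10 rapid stress genes and 8 of 12 root markers fell. They included the iron transporter IRT1 (log2 fold change -3.44 ± 0.32, adjusted p = 5.2e-06), the phosphate exporter PHO1 (AT3G23430) (log2 fold change -1.26 ± 0.23, adjusted p = 0.0011), the root hair regulator RHD6 (AT1G66470) (log2 fold change -1.58 ± 0.31, adjusted p = 0.0018) and the endodermal regulator MYB36 (AT5G57620) (log2 fold change -1.60 ± 0.32, adjusted p = 0.0023). NRT2.1 was at 0 in every library of the combined line. MYB15 and CML38 of the rapid stress list and PLT1 and SMB of the root list also fell. They needed their h2a.z libraries to be tested, which favours a fall. The part of these lists in the falls of WRKY members was not tested.

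Set directly against h2a.z, h3.3kd had 0 defence-inducible members higher and 17 lower, and 1 of the other members higher and 6 lower, against 9.4% of all genes that rose and 24.7% that fell. Leaving out WRKY51 and WRKY8 for the same reason, 15 of 20 were lower. These 15 still hold WRKY30, which needed its h2a.z libraries to be tested. With quantile normalization 17.6% of all genes rose and 16.4% fell, 0 defence-inducible members rose and 15 fell, and 2 other members rose and 3 fell. The median was -1.56 for the defence-inducible and -0.46 for the other members, against -0.17 for all genes. WRKY28 had the smallest adjusted p, with 0.304, 1.24 and 0.512 TPM in h3.3kd, against 7.57, 7.74 and 12.1 TPM in h2a.z (log2 fold change -2.60 ± 0.28, adjusted p = 7.7e-06). WRKY46 (log2 fold change -2.46 ± 0.31, adjusted p = 3.7e-05), WRKY40 (log2 fold change -2.23 ± 0.29, adjusted p = 4.3e-05), WRKY60 (log2 fold change -2.19 ± 0.29, adjusted p = 4.8e-05) and WRKY51 (log2 fold change -1.81 ± 0.24, adjusted p = 5.5e-05) followed. WRKY28 was the one member of these whose h3.3kd libraries all lay below Col as well. WRKY48 (log2 fold change -2.002 ± 0.27, adjusted p = 6.2e-05), WRKY45 (log2 fold change -2.50 ± 0.34, adjusted p = 6.3e-05), WRKY53 (log2 fold change -1.86 ± 0.26, adjusted p = 6.9e-05), WRKY29 (log2 fold change -1.55 ± 0.22, adjusted p = 8.1e-05) and WRKY47 (log2 fold change -1.18 ± 0.20, adjusted p = 0.0004) complete the 10 smallest. WRKY18 (log2 fold change -1.65 ± 0.30, adjusted p = 0.00066) and WRKY33 (log2 fold change -1.19 ± 0.26, adjusted p = 0.0029) fell too. The other member that rose was WRKY4, with 28.7, 41.9 and 39.5 TPM in h3.3kd, against 25.3, 20.5 and 23.4 TPM in h2a.z (log2 fold change 0.63 ± 0.17, adjusted p = 0.0098), and its call ended at 0.051 without h2a.z 2 (4.1e-05 to 0.051 over all settings). The remaining 11 that fell had log2 fold changes from -1.84 (WRKY30) to -0.44 (WRKY17), and between them stood WRKY26, WRKY8, WRKY31, WRKY23, WRKY35, WRKY75, WRKY6, WRKY65 and WRKY20. The WRKY65 call ended at 0.06 without h2a.z 3 (0.001 to 0.06 over all settings), and the WRKY6 call at 0.056 to 0.091 without h2a.z 3, h3.3kd 1 or h3.3kd 3 (0.00055 to 0.091 over all settings). The WRKY75 call ended at 0.054 to 0.13 without h2a.z 1, h2a.z 3, h3.3kd 1 or h3.3kd 2 (0.017 to 0.22 over all settings), and the WRKY20 call at 0.05 without h2a.z 1 (0.00096 to 0.075 over all settings). The WRKY17 call ended at 0.051 to 0.12 without h2a.z 2, h2a.z 3, combined 1, combined 2, combined 3, h3.3kd 1 or h3.3kd 2 (0.013 to 0.14 over all settings) and the WRKY35 call at 0.056 to 0.18 without Col 3, h2a.z 1, h2a.z 2, h2a.z 3, combined 1, combined 2, combined 3, h3.3kd 1 or h3.3kd 2 (0.0064 to 0.51 over all settings). Of 11 outputs 0 rose and 10 fell, of 4 VQ partners 0 and 3, of 13 receptor and kinase genes 0 and 2, of 11 rapid stress genes 1 and 9, and of 13 root markers 0 and 9, whose part in the result was not tested. With CML37 and PLT2 left out, 8 of 10 rapid stress genes and 8 of 12 root markers fell. Further genes that fell were tested only with their h2a.z libraries, which favours a fall. In the outputs they were FRK1, SAG13, CYP71A13 and ACS2. In the rapid stress and root lists they were MYB15, CML38, PLT1 and SMB. Without h2a.z 2 the count of other members that rose was 0. Without h3.3kd 2 the counts were 0 and 15 of the defence-inducible members and 2 and 7 of the other members.

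The effect of the H2A.Z mutation where H3.3 is already lowered is read from the combined line against h3.3kd. HTA9 averaged 87.2 TPM in the combined line and 212 TPM in h3.3kd, while it averaged 32.1 TPM in h2a.z and 255 TPM in Col. A weaker effect under lowered H3.3 and the smaller loss of this H2A.Z transcript cannot be told apart here. Of the defence-inducible members 1 rose and 1 fell, and of the other members 0 rose and 0 fell, against 2.43% of all genes that rose and 1.83% that fell. The median was 0.16 for the defence-inducible and 0.06 for the other members, against 0.01 for all genes. WRKY45 rose, with 5.001, 7.0001 and 11.1 TPM in the combined line, against 3.01, 1.004 and 3.68 TPM in h3.3kd (log2 fold change 1.32 ± 0.34, adjusted p = 0.042). WRKY75 fell, with 1.75, 1.07 and 1.70 TPM in the combined line, against 4.05, 4.26 and 5.21 TPM in h3.3kd (log2 fold change -1.14 ± 0.25, adjusted p = 0.017). Both had libraries apart. The WRKY45 call ended at 0.058 to 0.19 without h2a.z 1, h2a.z 2, h2a.z 3, combined 2, combined 3 or h3.3kd 2 (0.012 to 0.19 over all settings) and the WRKY75 call at 0.093 without combined 2 and 0.07 without h3.3kd 3 (0.00018 to 0.093 over all settings). WRKY46 averaged 2.37 ± 1.14 TPM in the combined line and 1.23 ± 0.772 TPM in h3.3kd (SD, n = 3; log2 fold change 0.60 ± 0.31, adjusted p = 0.39). WRKY33 averaged 19.9 ± 6.50 TPM in the combined line and 17.4 ± 3.94 TPM in h3.3kd (SD, n = 3; log2 fold change 0.16 ± 0.26, adjusted p = 0.84). WRKY53 (log2 fold change 0.59 ± 0.26, adjusted p = 0.26), WRKY40 (log2 fold change 0.57 ± 0.29, adjusted p = 0.36) and WRKY18 (log2 fold change 0.23 ± 0.30, adjusted p = 0.79) did not pass either. All 5 had overlapping libraries. Of 4 VQ partners 1 rose, SIB2 (log2 fold change 0.96 ± 0.21, adjusted p = 0.017), of 11 rapid stress genes 1 rose, MYB15 (log2 fold change 0.91 ± 0.24, adjusted p = 0.045), and of 13 root markers 1 fell, EXPA7 (AT1G12560) (log2 fold change -1.10 ± 0.28, adjusted p = 0.043). The SIB2 call ended at 0.091 without combined 3 (0.0013 to 0.091 over all settings), and the MYB15 call at 0.052 to 0.14 without Col 2, Col 3, h2a.z 1, h2a.z 2, combined 1, combined 2, combined 3, h3.3kd 1, h3.3kd 2 or h3.3kd 3 (0.0096 to 0.14 over all settings). The EXPA7 call ended at 0.061 to 0.22 without h2a.z 1, h2a.z 2, h2a.z 3, combined 1, combined 2, combined 3 or h3.3kd 3 (0.00045 to 0.22 over all settings). Of the outputs and of the receptor and kinase genes, 0 passed either way. Without h3.3kd 2, 1 of the other members rose, without h3.3kd 1, 1 of them fell, and without h3.3kd 3, 2 defence-inducible members rose.

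The interaction tests whether the H3.3 effect differs between the h2a.z background and plants with H2A.Z. The combined line kept more HTA9 transcript than h2a.z, which cannot be told apart from lowered H3.3 here. It is the combined line minus h2a.z, less h3.3kd minus Col, so a negative value means that the combined line stood lower against h2a.z than h3.3kd stood against Col. Of the 22 defence-inducible members 0 had a positive and 5 a negative interaction, and of the 19 other members 0 had either, against 0.637% and 1.85% of all genes. The median was -0.91 for the defence-inducible members and -0.05 for the other members (0.03 with quantile normalization), against -0.04 for all genes. WRKY46 had an interaction -2.59 ± 0.44, adjusted p = 0.0052, the only one of the 5 calls kept under every setting tried. WRKY51 had an interaction -1.71 ± 0.34, adjusted p = 0.015, with 2 Col libraries and 2 h3.3kd libraries at 0. It was tested only because it was high in h2a.z, which favours a negative value. Without it and WRKY8, 4 of 20 had a negative interaction, with a median of -0.84. WRKY30 had an interaction -2.36 ± 0.48, adjusted p = 0.017, with Col 1 and h3.3kd 1 at 0. WRKY48 had an interaction -1.69 ± 0.38, adjusted p = 0.03 and WRKY75 had an interaction -1.53 ± 0.35, adjusted p = 0.034. WRKY46, WRKY51, WRKY30 and WRKY48 were low in Col and h3.3kd alike and high in h2a.z, while WRKY75 was lowest in the combined line. WRKY46 and WRKY30 averaged 0.299 and 0.119 TPM in Col, and WRKY51 was also near 0 there. These genes had almost no room to fall in h3.3kd, so their fall against h2a.z favours a negative value. WRKY48 averaged 1.04 TPM in Col and had little room to fall in h3.3kd, which favours a negative value too. WRKY30 was also tested only with its h2a.z libraries.

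With a library left out, the WRKY30 call ended at 0.066 without h2a.z 1 and 0.054 without combined 1 (0.00075 to 0.16 over all settings). The WRKY48 call ended at 0.066 to 0.12 without Col 1, Col 2, h2a.z 1, h2a.z 2, h2a.z 3, combined 1 or h3.3kd 3 (0.0017 to 0.12 over all settings), and the WRKY75 call at 0.057 to 0.13 without Col 2, Col 3, h2a.z 1, h2a.z 2, h2a.z 3, combined 1, combined 2, combined 3 or h3.3kd 3 (0.0018 to 0.13 over all settings). The count of 5 became 1 without h2a.z 1, 2 without h2a.z 2, h2a.z 3 or combined 1, and 3 without Col 2 or h3.3kd 3, and it was 6 without h3.3kd 2, while 1 of the other members was called without h3.3kd 1. WRKY33 (interaction -1.43 ± 0.37, adjusted p = 0.062), WRKY40 (interaction -1.43 ± 0.41, adjusted p = 0.093), WRKY18 (interaction -1.12 ± 0.42, adjusted p = 0.22) and WRKY53 (interaction -0.90 ± 0.36, adjusted p = 0.26) did not pass the test. WRKY74, of the other members, had an interaction -1.504 ± 0.39, adjusted p = 0.063. Of the lists, SIB1 (interaction -2.04 ± 0.36, adjusted p = 0.0069) was the VQ partner with a call, and 0 of 11 outputs and 0 of 13 receptor and kinase genes had one. The rapid stress list had 4, MYB15 (interaction -2.28 ± 0.34, adjusted p = 0.002), ZAT10 (interaction -1.94 ± 0.39, adjusted p = 0.016), TCH3 (interaction -1.59 ± 0.37, adjusted p = 0.035) and CML37 (interaction -1.47 ± 0.34, adjusted p = 0.036), and the root list had 1, IRT1 (interaction -1.91 ± 0.46, adjusted p = 0.04). CML37, like WRKY51, was tested only because it was high in h2a.z, and without it the rapid stress list had 3 of 10. MYB15 averaged 0.0422 TPM in Col and so had almost no room to fall in h3.3kd. CML37 and SIB1 averaged 0.287 and 0.982 TPM in Col and had little room to fall as well. The ZAT10 call ended at 0.05 to 0.061 without h2a.z 1, h2a.z 3 or combined 1 (0.00022 to 0.061 over all settings), and the TCH3 call at 0.058 to 0.11 without Col 1, Col 2, Col 3, h2a.z 1, h2a.z 2, h2a.z 3, combined 1 or h3.3kd 3 (0.0022 to 0.11 over all settings). The CML37 call ended at 0.064 to 0.097 without Col 2, Col 3, combined 1, combined 2, combined 3 or h3.3kd 3 (0.0012 to 0.3 over all settings), and the IRT1 call at 0.066 to 0.13 without Col 1, Col 2, Col 3, h2a.z 1, h2a.z 2, h2a.z 3, combined 2, combined 3, h3.3kd 2 or h3.3kd 3 (0.00083 to 0.13 over all settings). The part of the rapid stress and root genes in the interaction of WRKY members was not tested.

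The 4 members that were not tested can be given by level only. WRKY38, which with WRKY62 restrains basal defence, had 0.238, 0.47 and 0.231 TPM in the combined line and 0.969, 1.31 and 0.876 TPM in h2a.z, and was listed at 0 in every h3.3kd and Col library. WRKY62 had 0.208, 0 and 0 TPM in the combined line, 0, 0 and 0 TPM in h3.3kd, 0, 0.765 and 2.03 TPM in h2a.z and 0.0921, 0.105 and 0 TPM in Col. Both are group III members, and their highest libraries were of h2a.z. WRKY55 had 0.266 TPM in its highest library, Col 3. WRKY42 (AT4G04450), which like WRKY6 represses PHO1, had 0.378, 0.523 and 0.294 TPM in the combined line, 0.222, 0.835 and 0.2 TPM in h3.3kd, 0.64, 1.53 and 0.578 TPM in h2a.z and 0.871, 1.46 and 0.968 TPM in Col. Its highest library was h2a.z 2. Every library of the combined line and h3.3kd was below every Col library, while h2a.z and Col overlapped.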

How the data were processed

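RNA was sequenced from whole seedlings of 4 genotypes with 3 libraries each, 12 in all. The authors deposited TPM values per gene, which sum to 1000000 in each library, so read depth, counting error and the gene lengths used are unknown. The labels' protocols name a NEBNext Ultra library kit, and fastp 0.20.1, HISAT2, HTSeq 0.11.2, DESeq2 1.26.0 and the build TAIR10 are named per the submitters' processing notes. The sources used here do not say whether reads were counted by strand, so reads of overlapping or antisense genes cannot be told apart.

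Values were used as log2(TPM + 1), with a pseudocount of 1 TPM. Genes with 1 TPM or more in at least 3 libraries were tested (19937 of 23387), and limma 3.58.1 in R 4.3.3 was fitted to all 12 libraries with 1 mean per genotype and a trended variance. P-values were adjusted by Benjamini-Hochberg over the tested genes, with a threshold of 0.05, and the procedure was tested on simulated data. The labels do not say whether the libraries came from separate cultures, so p-values measure only the spread between these libraries.

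The members, their classes and the gene lists were chosen with earlier results of these data known. Members were named by rule: up to 10 called members per comparison with the smallest adjusted p, WRKY18, WRKY33, WRKY40, WRKY46 and WRKY53 always, up to 4 called genes per list, and the 6 targeted histone genes. A few further values are given to account for the remaining members and for the library combined 2. Same-numbered libraries were checked for shared deviations from their genotype means. Correlations were above 0.1 in every pair only for h3.3kd with Col (0.115 to 0.314), and lay between -0.176 and 0.158 for the other genotype pairs, so a replicate block was added for h3.3kd and Col alone. Alternatives covered pseudocounts, filters, rescaling, array weights, robust variance, the genotypes in the fit, the replicate block, class membership and each library left out. Promoters are from the RefSeq genome TAIR10.1, where all 45 members were matched by locus.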

Additional observations from a re-analysis of the deposited data

Results flagged for a closer look

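Among the members and lists, 13 genes passed the interaction test (limma, adjusted p under 0.05). It asks whether lowering H3.3 has a different effect with and without the h2a.z mutation. Over all tested genes 0.637% had a positive and 1.85% a negative interaction. The calls of WRKY30, WRKY48, WRKY51, WRKY75, MYB15, ZAT10, TCH3, CML37, SIB1 and IRT1 were lost under at least 1 setting. The call of the targeted histone gene HTA9 was not followed over the settings. Values are the interaction on the log2 scale, that is (combined line minus h2a.z) minus (h3.3kd minus Col). Among the WRKY members it was -2.59 for WRKY46, -2.36 for WRKY30, -1.71 for WRKY51, -1.69 for WRKY48 and -1.53 for WRKY75. In the rapid stress list it was -2.28 for MYB15, -1.94 for ZAT10, -1.59 for TCH3 and -1.47 for CML37. WRKY51 and CML37 reached the TPM minimum only in the h2a.z libraries, so they could be tested only if high there, which favours a negative value. WRKY30 and MYB15 also needed their h2a.z libraries to be tested. WRKY46, WRKY30 and MYB15 averaged 0.299, 0.119 and 0.0422 TPM in Col and could hardly fall in h3.3kd, which favours a negative value too. WRKY51, CML37, SIB1 and WRKY48 averaged 0.022, 0.287, 0.982 and 1.04 TPM in Col and had little room to fall as well. The VQ partner SIB1 had -2.04 and the root marker IRT1 had -1.91. Positive values were found for the shoot marker GL1, a trichome regulator, at 2.09, and for the targeted histone gene HTA9 at 1.71.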

How the results depend on the processing

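Of 87 member calls over the 7 comparisons, 51 were kept under every setting tried, 36 were lost under at least 1 and 0 changed direction. The counts of defence-inducible members that rose in h2a.z against Col or fell against h2a.z stayed within 1.5 times under every setting that keeps all libraries. The cause of the moves below was not tested, beyond the samples or genes that a setting removes. TPM holds no depth, so what depth limits cannot be stated.

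Counts are given against the main value. In h2a.z against Col, 1 other member rose with a TPM minimum of 5 (main 2). In h3.3kd against Col, defence-inducible members that rose (main 0) numbered 1 with median ratio rescaling, 2 with quantile normalization and 2 with array weights, and those that fell (main 2) numbered 1 with quantile normalization and 1 with only the genotypes compared. Other members that rose there (main 1) numbered 3 with median ratio rescaling, 4 with quantile normalization, 2 with array weights and 0 with only the genotypes compared, and those that fell (main 2) numbered 1 with only the genotypes compared. With a replicate block over all 4 genotypes, other members that rose in h3.3kd against Col numbered 0, and 1 other member had a negative interaction. With the replicate block in a fit of h3.3kd and Col alone, chosen after seeing the data, the counts were 0 and 1 for defence-inducible and 0 and 1 for other members that rose and fell. The replicate block over all genotypes ended the WRKY29 call in the combined line against Col (adjusted p = 0.054) and the WRKY2 calls in h3.3kd against Col (0.052) and in the combined line against h2a.z (0.059), and no other member call.

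In h3.3kd against h2a.z, other members that rose (main 1) numbered 2 with median ratio rescaling, 2 with quantile normalization and 3 with array weights, and those that fell (main 6) numbered 3 with quantile normalization. In the combined line against Col, other members that rose (main 1) numbered 2 with either rescaling. In the combined line against h2a.z, 1 defence-inducible member rose with median ratio rescaling, array weights or only the genotypes compared (main 0). Other members that rose there (main 1) numbered 3 with either rescaling or only the genotypes compared and 4 with array weights, and those that fell (main 7) numbered 3 with quantile normalization. In the combined line against h3.3kd, defence-inducible members that rose (main 1) numbered 0 with a pseudocount of 0.1, no filter, either rescaling, only the genotypes compared or without WRKY15, WRKY25, WRKY26 and WRKY45, and 3 with array weights. With array weights 2 defence-inducible members fell (main 1) and 2 other members rose and 2 fell (main 0 each), and 1 other member fell with either rescaling. For the interaction, defence-inducible members with a negative value (main 5) numbered 2 with a pseudocount of 0.1, 3 with a TPM minimum of 5 and 11 with array weights, and other members (main 0) 1 with no filter and 3 with array weights.

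With each library left out in turn, defence-inducible members that rose in h2a.z against Col numbered 9 to 16. In h3.3kd against Col the range was 0 to 2 for defence-inducible members that rose, 1 to 2 for those that fell, 0 to 3 for other members that rose and 1 to 3 for those that fell. In the combined line against Col, 0 to 2 defence-inducible members rose and 1 to 3 fell. In the combined line against h2a.z, 0 to 3 other members rose and 4 to 7 fell, and in h3.3kd against h2a.z 0 to 2 other members rose. In the combined line against h3.3kd, 0 to 2 defence-inducible members rose and 0 to 1 fell, and 0 to 1 other members rose and 0 to 1 fell. The interaction was negative for 1 to 7 defence-inducible and 0 to 1 other members.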
